A study of Homo sapiens with 6 samples.

Results

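H3K27ac-anchored DNA contacts were compared between G401 cells without SMARCB1 and G401 cells in which SMARCB1 had been expressed again for 3 days. They comprise the 4 H3K27ac libraries among the 6 libraries of the series, chosen by their labels: 2 at day 0 and 2 at day 3. G401 is a human line established from a rhabdoid tumour, bought from ATCC per the labels, and SMARCB1, which it has lost, is a core member of the chromatin remodeller SWI/SNF. The cells used here carried a stable, inducible SMARCB1 and were kept in Tet-free serum. The day 0 group had the genotype label SMARCB1 -/- and no doxycycline, and the day 3 group had the label SMARCB1 +/+ and doxycycline at 1 μg/ml. The other 2 libraries, ARID1A HiChIP at day 3 under the same doxycycline dose, were used only to mark which H3K27ac anchors also had an ARID1A anchor. The groups differ in SMARCB1, in doxycycline and in days of culture at once, and these effects cannot be told apart. Whether replicates were separate cultures is not in the labels, and p-values then reflect only the spread of these libraries, which may be technical. Over 6500 anchors, chi-square per degree of freedom between replicates was 1.125 at day 0 and 1.047 at day 3, where counting error alone gives 1. The p-values below rest on this small spread, and how far separate cultures would vary is not known.

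HiChIP joins DNA segments that lie close together in the nucleus and then selects, with an antibody, the joined fragments that carry a chosen mark. H3K27ac is an acetylation of histone H3 found at active promoters and enhancers, and a paired-end tag (PET) is a sequenced fragment that joins 2 such segments. SWI/SNF moves and evicts nucleosomes, and AP-1, a dimer of FOS and JUN family proteins, is a transcription factor that binds many enhancers. The title of the series names SWI/SNF and AP-1 together as factors in the arrangement of enhancers, which is the question the comparison addresses. An anchor is a region called as an end of contacts, and a loop is a pair of anchors with its PET count. H3K27ac contacts are a bulk measure, so contacts in fewer cells and fewer contacts per cell cannot be told apart. A PET count also depends on how much of the mark the joined segments carry, because the antibody selects for it. A change in the mark and a change in how often segments meet cannot be told apart from these libraries. Contacts gained or lost below therefore mean counted PETs.

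Loops numbered 46677 and 44104 in the day 0 libraries (301703 and 253502 PETs) and 162010 and 162167 in the day 3 libraries (929128 and 982141 PETs). Within a group, 99.2% of anchors at day 0 and 99.7% at day 3 were identical to the base between replicates, against 3.42% to 3.48% between groups, so each group had its own set of anchors. Merging anchors that shared 1 bp or more gave 18038 consensus anchors. Of these, 7263 (40.3%) held an anchor at both times, 9993 (55.4%) only at day 3 and 782 (4.34%) only at day 0. An ARID1A anchor overlapped 83.6% of the anchors called at both times, 73.3% of those called only at day 3 and 48.7% of those called only at day 0. A group in which a region had no anchor gives no value for it, so folds and tests are given only for anchors and loops called at both times. Loops between such anchors held 80.1% and 80.4% of the day 0 PETs and 50.8% and 51.2% of the day 3 PETs. The start of SMARCB1 lay in no anchor at either time, so these contacts hold no check of its re-expression.

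Among anchors called at both times, contacts changed in both directions in nearly equal numbers. Of 6500 anchors tested, 2374 (36.5%) passed an adjusted p of 0.05 in edgeR's quasi-likelihood test with Benjamini-Hochberg adjustment, 1259 (19.4%) with more PETs at day 3 and 1115 (17.2%) with fewer. An anchor's PETs were summed over its loops to other anchors called at both times, and these sums came to 441558 and 373520 in the day 0 libraries and 927102 and 988235 in the day 3 libraries, so a raw count can be larger at day 3 where its scaled value is smaller. The balance followed the scaling: with each library's total of PETs between consensus anchors (library totals) in place of TMM (trimmed mean of M-values), 357 anchors were higher and 3757 lower, and the median of all log2 changes moved from -0.011 to -0.67. Changes below are therefore relative to the other anchors called at both times, and a sign that turns with library totals is named where it occurs. A value after ± beside a log2 change is the standard error (SE) of the fit.

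The change in PETs moved with the width of the called anchor. Of the anchors called higher, 1242 of 1259 (98.6%) were wider at day 3 than at day 0, and of those called lower 660 of 1115 (59.2%) were narrower, while 73.4% of all tested anchors were wider at day 3. Among the 828 anchors that were more than 2 times as wide at day 3, 577 were higher and 2 lower. Among the 45 whose width at day 3 was under 0.5 of that at day 0, 40 were lower and the other 5 were not called. Among the 2764 whose narrower width was at least 0.8 of the wider, 121 were higher and 699 lower. Across the 6500 anchors, which are not independent replicates and share libraries, Spearman's rho between the width ratio and the log2 change was 0.68. Results for anchors of similar width are therefore given separately, from a fit on loops between such anchors only, with its own TMM scaling.

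**Figure D1:**
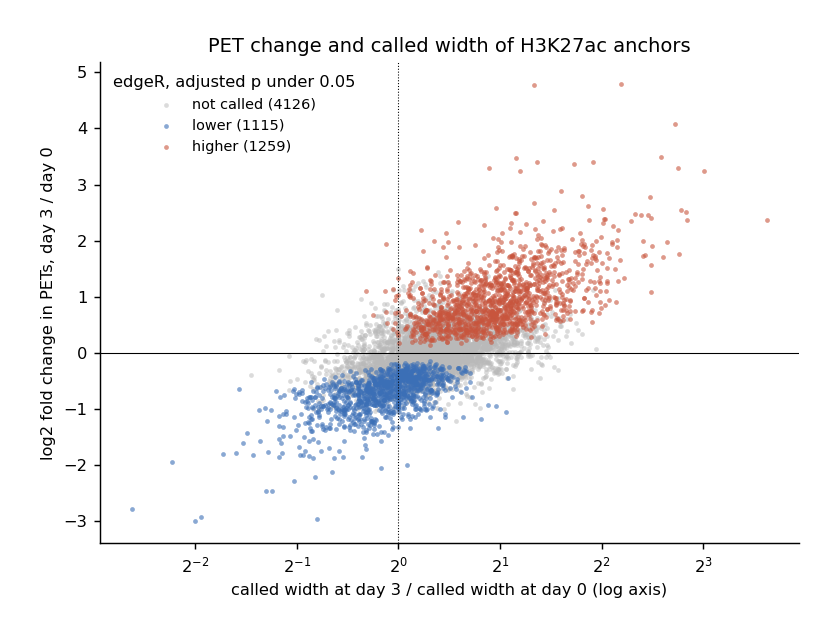
Each point is 1 of 6500 anchors called at both times, with the ratio of its called width at day 3 to day 0 on a log axis and its log2 change in PETs (edgeR, TMM scaling) on the other. Of the 1259 anchors called higher, 98.6% lie to the right of a ratio of 1, and of the 1115 called lower 59.2% lie to its left.

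Anchors called higher had an ARID1A anchor in 92.5% of cases, those called lower in 84.6% and those not called in 83.9%. Higher anchors were also the widest at day 3, with a median of 12.8 kb against 6.89 kb for lower and 7.06 kb for uncalled anchors, and the part of width in the ARID1A overlap was not tested. Calls lay in runs along the chromosomes. The neighbour of a higher anchor was higher in 44.4% and lower in 5.33% of positions, and the neighbour of a lower anchor was lower in 46.1% and higher in 6.02%. Beside uncalled anchors the shares were 15.4% higher and 12.96% lower; neighbouring anchors often share loops and so are not independent. Chromosome 19 had the largest share of lower anchors of any chromosome (29.3% of 379), and chromosome 7 the largest share of higher ones (26.6% of 304).

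The AP-1 family itself was split. The start of JUNB lay in an anchor with 89 and 80 PETs (day 0) against 439 and 450 (day 3), a log2 change of 1.17 ± 0.12 (SE; adjusted p = 9.24e-13). The start of FOSB lay in an anchor with 167 and 161 PETs (day 0) against 124 and 130 (day 3), which at 752 and 857 against 266 and 262 CPM was a log2 change of -1.60 ± 0.13 (adjusted p = 1.31e-16). Neither gene's libraries overlapped between the groups, as in 1255 of the 1259 higher and 1109 of the 1115 lower anchors. With library totals JUNB stood at 0.51 and FOSB at -2.25. CPM are PETs scaled with TMM to 1000000 over the tested set. The JUNB anchor was 2.41 times as wide at day 3 and the FOSB anchor 0.450 times.

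FOSL1 and JUND also passed the test downwards, with log2 changes of -0.48 ± 0.08 and -0.45 ± 0.08. FOSL1 encodes the FOS-like partner FRA-1, and JUND is the JUN protein kept in many resting cells. Both anchors kept a similar width, and within the set of similar width their changes were -0.06 and -0.15 with adjusted p-values of 0.81 and 0.60. FOSL2 was not called, with 98 and 96 PETs at day 0, 239 and 264 at day 3 and a log2 change of 0.15 ± 0.13, or -0.51 with library totals. The list of 9 AP-1 genes thus had 5 tested anchors, 1 higher and 3 lower (19.4% and 17.2% of all tested), with a median log2 change of -0.45 beside -0.011 over all anchors tested. FOS, a founding member of AP-1, had an anchor only at day 0, with 317 and 247 PETs, and the closest day 3 anchor lay 5.85 kb from it. PETs of regions called at a single time are summed over all their loops. ATF3, a stress-responsive partner of JUN proteins, had an anchor only at day 3 (116 and 113 PETs), JUN had one only at day 3 with 2 and 4 PETs, and BATF3 had none.

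Promoter sequences of the AP-1 genes were set beside these contacts because the anchors cover their starts. RefSeq promoter entries, 250 bases before to 50 bases after the start on build GRCh38.p14, existed for 7 of the 9 genes, and 4 are shown on the coding strand, 5′ to 3′. They are those of FOS, with an anchor only at day 0, of FOSB and JUND, called lower, and of JUNB, called higher. The JUND call was not kept within the set of similar width. Their positions on that build are chr14:75278578-75278877 (plus strand) for FOS, chr19:45467746-45468045 (plus) for FOSB, chr19:12791236-12791535 (plus) for JUNB and chr19:18281573-18281872 (minus) for JUND, while the anchors are on hg19. Capitals mark matches, on either strand, to TGACGT, the core of the cAMP response element, or to TGANTCA, the AP-1 element; the search found no TGANTCA in the 4 sequences.
FOS: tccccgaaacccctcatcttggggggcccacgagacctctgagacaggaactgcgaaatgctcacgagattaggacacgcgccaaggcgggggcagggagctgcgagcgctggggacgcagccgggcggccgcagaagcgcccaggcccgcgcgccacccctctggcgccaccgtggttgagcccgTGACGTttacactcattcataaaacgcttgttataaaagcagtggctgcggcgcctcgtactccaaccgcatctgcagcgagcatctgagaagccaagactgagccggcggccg
FOSB: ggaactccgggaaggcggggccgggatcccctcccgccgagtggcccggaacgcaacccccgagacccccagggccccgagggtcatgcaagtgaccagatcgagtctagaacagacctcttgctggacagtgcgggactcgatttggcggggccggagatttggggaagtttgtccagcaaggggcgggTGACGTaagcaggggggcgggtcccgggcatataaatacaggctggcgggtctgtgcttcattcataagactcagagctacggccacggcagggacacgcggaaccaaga
JUNB: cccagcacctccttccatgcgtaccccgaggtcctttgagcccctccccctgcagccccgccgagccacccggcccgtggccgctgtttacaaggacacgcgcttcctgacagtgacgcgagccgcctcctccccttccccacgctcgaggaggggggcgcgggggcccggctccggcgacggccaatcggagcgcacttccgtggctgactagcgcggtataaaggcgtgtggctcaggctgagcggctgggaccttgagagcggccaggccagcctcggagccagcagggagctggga
JUND: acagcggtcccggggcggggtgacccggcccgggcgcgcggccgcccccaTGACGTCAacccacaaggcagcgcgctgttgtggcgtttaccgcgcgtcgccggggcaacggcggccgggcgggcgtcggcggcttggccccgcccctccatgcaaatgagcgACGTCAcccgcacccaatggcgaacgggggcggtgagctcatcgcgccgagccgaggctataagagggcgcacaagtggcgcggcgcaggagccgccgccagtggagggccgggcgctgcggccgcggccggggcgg

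FOS and FOSB each held 1 match to TGACGT, JUND held 3, of which 2 overlap on opposite strands, and JUNB held none. Of the entries not shown, that of FOSL2 held 1 match to each motif, and those of JUN and ATF3 (2 entries) held none of either. Over all 35116 promoter entries of the same length, 7.98% held TGACGT and 7.71% held TGANTCA. A match is a description of the letters and says nothing on binding in G401.

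The gene lists were read by the anchors over their members' starts. Over all 7 lists, 81 of 84 genes had a certain position; 42 starts lay in an anchor called at both times, 14 in an anchor only of day 3, 3 only of day 0 and 22 in none. Of the 39 tested, 10 were higher and 5 lower, beside 19.4% and 17.2% of all anchors tested. Without day 3 replicate 1 the calls fell from 15 to 9, and without day 0 replicate 2 there were 10. With library totals, only JUNB, SMARCA4, IGF2BP2 and, at 0.0043, ACTN1 kept a positive log2 change among the 10 called higher.

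SWI/SNF subunits had 8 tested starts, of which 2 passed the test, both higher (25%, beside 19.4% of all anchors tested). The start of SMARCA4, an ATPase of the complex, lay in an anchor with 90 and 74 PETs (day 0) against 404 and 407 (day 3), a log2 change of 1.08 ± 0.12, and this anchor was 2.70 times as wide at day 3. The start of ARID1A, the subunit profiled in the other libraries, changed by 0.29 ± 0.10, which turned to -0.36 with library totals. Starts of SMARCC2 (205 and 227 PETs), SMARCD2, BRD9 and ACTL6A had an anchor only at day 3, and that of SMARCD1 only at day 0 (23 and 27 PETs).

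Among matrix and contractile genes, 11 starts were tested and 3 passed, all higher (27.3%, beside 19.4% of all anchors tested). The median log2 change of these starts was 0.03. ACTN1, which encodes alpha-actinin, went from 73 and 58 to 250 and 235 PETs, a log2 change of 0.66 ± 0.14 on an anchor of nearly constant width (ratio 1.02), but within the set of similar width it stood at 0.03 (adjusted p = 0.97). COL3A1, a fibrillar collagen gene, changed by 0.61 ± 0.19 and VCL, the vinculin gene, by 0.29 ± 0.10, and both turned with library totals (-0.049 and -0.37). TPM1, a tropomyosin gene, was not called with 746 and 632 PETs (day 0) against 1656 and 1756 (day 3) (0.08 ± 0.06, or -0.58 with library totals), but passed within the set of similar width at 0.31 (adjusted p = 0.00020). COL1A1 and COL1A2, the type I collagen genes, and FLNA, which encodes filamin A, had an anchor only at day 3. The nearest day 0 anchor lay 3.41 kb from that of COL1A1, 1.098 kb from that of FLNA and 83.6 kb from that of COL1A2.

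YAP and TEAD factors and targets had 7 tested starts, 1 higher and 2 lower, beside 19.4% and 17.2% of all anchors tested. TEAD1, a DNA-binding partner of YAP, changed by 0.41 ± 0.14, which turned to -0.25 with library totals and to -0.09 (adjusted p = 0.90) within the set of similar width. TEAD3 changed by -0.33 ± 0.11 and AMOTL2, an angiomotin family member and YAP target, by -0.25 ± 0.06, and within the set of similar width these stood at -0.07 (adjusted p = 0.84) and 0.13 (adjusted p = 0.15). For the cell cycle, the start of MYC changed by 0.27 ± 0.10 (181 and 163 PETs to 489 and 485), turning to -0.38 with library totals and to -0.36 (adjusted p = 0.63) within the set of similar width. The inhibitor genes CDKN1A (169 and 184 PETs), CDKN2A (58 and 59) and CDKN2B (28 and 46), and the cyclin gene CCND3 (77 and 82), had an anchor only at day 3, and CDKN1B and CCND1 were tested without a call.

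Of the oncofetal genes, which are active in embryonic tissue and many tumours, 5 starts were tested and 2 were higher. That is 40%, beside 19.4% of all anchors tested. The start of IGF2BP2, an mRNA-binding protein gene, went from 14 and 19 to 88 and 85 PETs, a log2 change of 1.16 ± 0.26, and that of IGF2BP3 changed by 0.20 ± 0.08, turning to -0.45 with library totals. HMGA2 had an anchor only at day 0, with 565 and 490 PETs, and the nearest day 3 anchor lay 65.1 kb away. None of the kidney progenitor genes had a start in an anchor called at both times, so none was tested.

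**Figure D2:**
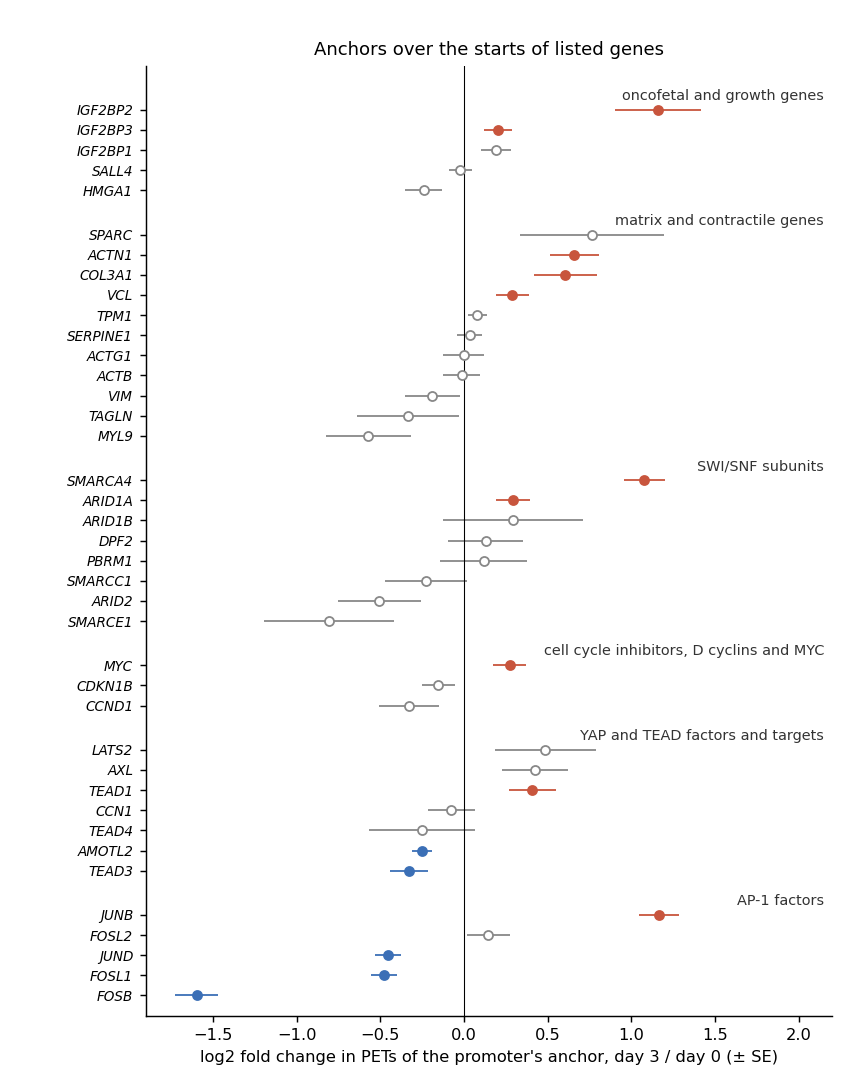
Points give the log2 change in PETs, day 3 over day 0, of the anchor over each listed gene's start, with the SE of the edgeR fit as bars; filled points passed an adjusted p of 0.05 (10 higher, 5 lower) and open points (24) did not. JUNB, SMARCA4 and IGF2BP2 lie above 1 and FOSB below -1; with library totals, 6 of the 10 higher calls fall below 0.

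The anchor with the smallest p lay between MSRB3, a methionine sulfoxide reductase gene, and HMGA2, at chr12:65976658-66054905 (hg19, 12q14.3). It overlapped no gene of the position table, began 116 kb past the end of MSRB3 and ended 163 kb before the start of HMGA2. It held 133 and 104 PETs (day 0) against 1822 and 1986 (day 3), which is 576 ± 32.1 against 3956 ± 62.04 CPM (SD, n = 2). The log2 change was 2.78 ± 0.08 (adjusted p = 7.38e-39), its called width went from 13651 to 75866 bp, and its partner anchors over all loops numbered 19 and 21 at day 0 and 39 and 37 at day 3. With every library thinned to 253502 PETs, the partners numbered 19 and 21 against 34 and 31. Partners over all loops include anchors called at a single time. The mean over all anchors called at both times also rose, from 9.96 to 23.5 partners, and from 9.62 to 13.3 after thinning.

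Contacts of this anchor rose on both sides, towards MSRB3 and towards HMGA2. Its loop to chr12:65683050-65739919, inside MSRB3, went from 37 and 32 to 475 and 503 PETs, a log2 change of 2.56 ± 0.15. The loop to chr12:65819241-65875701 over the MSRB3 end went from 5 and 11 to 311 and 300 PETs (3.98 ± 0.23), and the loop to the start of MSRB3 from 3 and 5 to 54 and 44 (2.33 ± 0.42). On the HMGA2 side, the loop to chr12:66105983-66127677 went from 33 and 11 to 374 and 452 PETs (2.96 ± 0.18). With the HMGA2 start itself it shared 18 and 8 PETs at day 0, and no day 3 value exists because no day 3 anchor covers that start. The MSRB3 end anchor, which overlaps the gene's body, was also among the 12 named higher anchors, at 214 and 178 against 998 and 1020 PETs (1.14 ± 0.08).

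**Figure D3:**
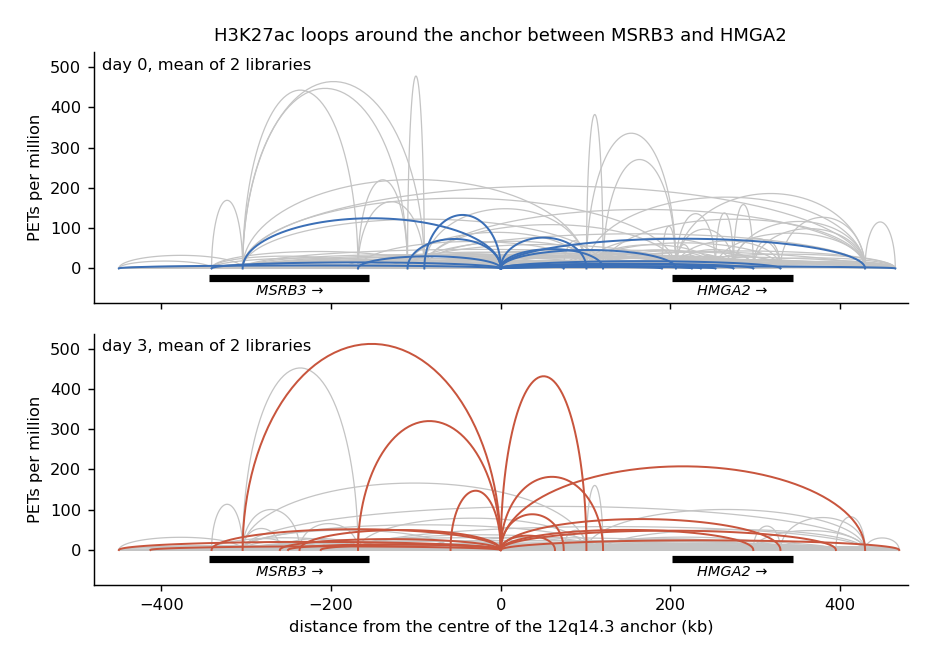
Arcs join the centres of anchors within 480 kb of the 12q14.3 anchor, at distances in kb from its centre, and arc height is the mean PETs per 1000000 PETs of the library, over each group's 2 libraries; coloured arcs end at that anchor, grey arcs do not, and arrows give the direction of transcription. The 19 coloured loops at each time sum to a height of 698 at day 0 and 2306 at day 3, and regions without an anchor at a time have no arcs there.

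On 8q24.21, 1 stretch gained and another lost H3K27ac PETs. An anchor inside PVT1, a long noncoding RNA gene next to the growth regulator MYC, at chr8:128860879-128892599, went from 42 and 31 to 494 and 506 PETs (2.55 ± 0.14). Its loop to the MYC start went from 11 and 12 to 86 and 89 PETs (1.66 ± 0.28), and its loop to the PVT1 start from 20 and 10 to 243 and 228 (2.70 ± 0.21). At lower coordinates, the anchor chr8:127456711-127495665, 69 kb from LRATD2, went from 912 and 742 to 533 and 611 PETs (-1.76 ± 0.06), and its loop to the LRATD2 start from 191 and 160 to 100 and 131 (-1.87 ± 0.13). The same anchor's loops over 1275 kb to MYC held 5 and 5 PETs (day 0) against 3 and 2 (day 3) (-2.19 ± 0.72, adjusted p = 0.028), too few for more than a direction.

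The adjacent anchor chr8:127383574-127450707 held 1081 and 897 PETs (day 0) against 1271 and 1325 (day 3), a log2 change of -0.84 ± 0.05 with a width ratio of 1.04. That sign was not kept within the set of similar width, where it stood at 0.14 (adjusted p = 0.24). The loop between these neighbouring anchors had the smallest p of all lower loops, going from 617 and 510 to 368 and 398 PETs (-1.82 ± 0.08).

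The remaining higher anchors lay on chromosomes 2, 7, 4, 5, 20 and 3, in or beside genes of varied function. LINC01122, a long noncoding RNA gene on 2p16.1, held the anchor chr2:58778232-58853761 with 109 and 122 PETs (day 0) against 926 and 946 (day 3) (1.79 ± 0.10), and it overlapped no ARID1A anchor. Inside TNS3, which encodes the focal adhesion protein tensin 3, the anchor chr7:47518603-47545474 went from 17 and 17 to 356 and 400 PETs (3.24 ± 0.18), and its loop to the TNS3 start from 8 and 9 to 159 and 169. RBM47, an RNA-binding protein gene on 4p14, held a pair of higher anchors: the anchor over its start (111 and 91 to 751 and 777 PETs) and the adjacent anchor in its body (151 and 126 to 746 and 791). The loop between this pair went from 204 ± 10.4 to 797 ± 15.4 CPM of the tested loops (SD, n = 2; 1.92 ± 0.15).

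ZNF608, a zinc finger gene on 5q23.2, had a higher anchor in its body (56 and 39 to 410 and 441 PETs, 1.93 ± 0.14) and another 169 kb beyond it at chr5:124253869-124273410 (48 and 34 to 460 and 495, 2.31 ± 0.14). The distant anchor's loop to the ZNF608 start went from 9 and 8 to 78 and 95 PETs (2.07 ± 0.30). On 20q13.13, the anchor chr20:49038743-49059651 lay between CEBPB, a bZIP transcription factor gene 230 kb away, and PTPN1, a tyrosine phosphatase gene 67 kb away, and went from 12 and 12 to 287 and 271 PETs (3.30 ± 0.22). It was joined to the CEBPB start by 1 and 1 PETs (day 0) against 32 and 38 (day 3), a ratio of 14.9 after scaling to the PETs between anchors called at both times (95% counting interval 3.98 to 125.5), and to the PTPN1 start by 0 and 0 against 18 and 18. These contacts reached starts on both sides of the anchor.

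The steepest named change was on 3q22.1. An anchor at the end of BFSP2, a lens filament gene, at chr3:133178683-133201301, went from 7 and 3 to 197 and 206 PETs (4.08 ± 0.28), and the anchor over the CDV3 start at chr3:133279996-133299496 from 9 and 9 to 213 and 226 (3.37 ± 0.24). The loop that joins them held 1 and 1 PETs (day 0) against 119 and 128 (day 3), a ratio of 52.6 after scaling (95% counting interval 14.4 to 436.8). Over the 12 named higher anchors, folds ran from 2.198 to 16.96 with a largest adjusted p of 8.28e-18, and all 12 were wider at day 3, by 1.64 to 8.02 times.

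**Figure D4:**
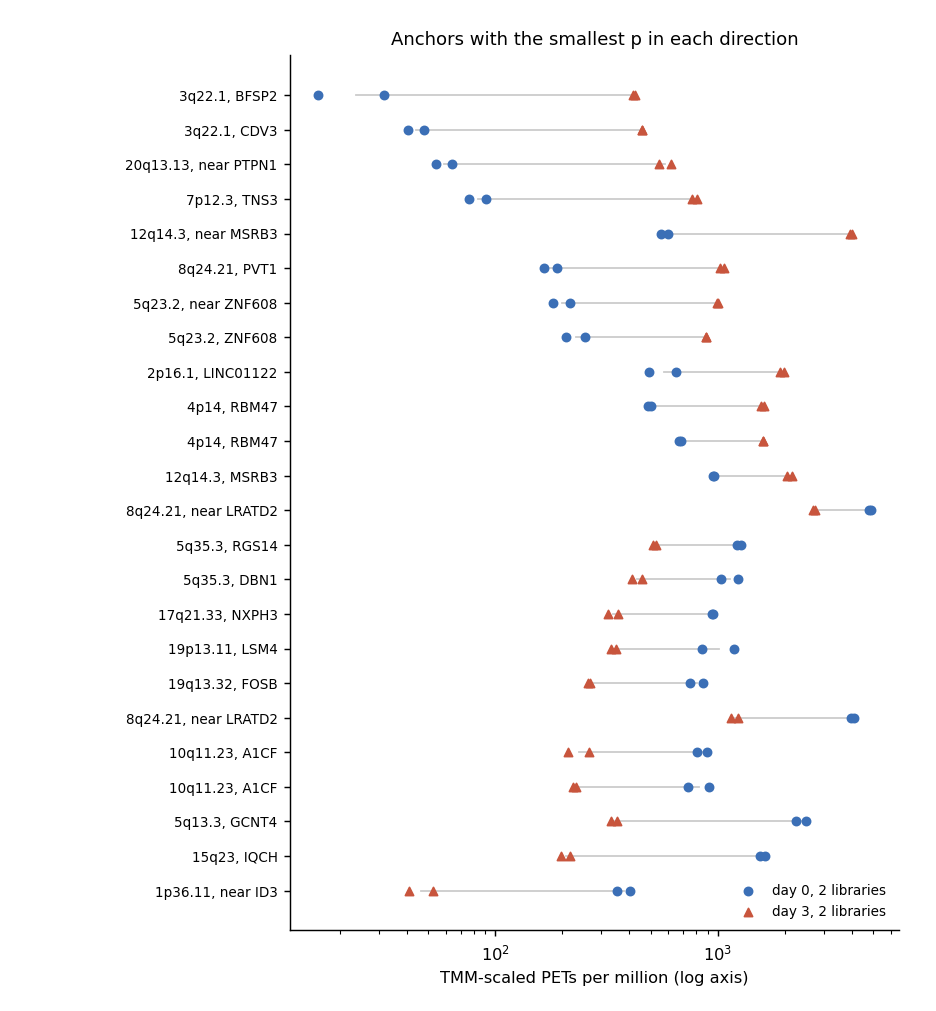
TMM-scaled PETs per 1000000, on a log axis, of the 12 higher and 12 lower anchors with the smallest p, 1 point for each of the 2 day 0 (circles) and 2 day 3 (triangles) libraries, with a grey line between group means. In all 24 the libraries of the groups do not overlap, which the rule for naming them required.

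Among the lower anchors, the anchor over GCNT4, a glycosyltransferase gene on 5q13.3 (chr5:74296093-74331350), had the smallest p. It held 552 and 420 PETs (day 0) against 164 and 165 (day 3), or 2361 ± 177 against 342 ± 14.02 CPM (SD, n = 2), a log2 change of -2.79 ± 0.09, and its called width went from 31092 to 5029 bp. Its loop to the start of ANKRD31 fell from 81 and 57 to 9 and 10 PETs (-4.10 ± 0.27) and that to FAM169A from 25 and 22 to 8 and 7 (-2.89 ± 0.39). Loops to both of these neighbouring starts passed the test downwards.

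Inside IQCH on 15q23, the anchor chr15:67647708-67683381 went from 344 and 307 to 92 and 108 PETs (-2.93 ± 0.11). Its loop to the C15orf61 start fell from 55 and 66 to 19 and 14 PETs (-3.13 ± 0.25) and that to MAP2K5, a MAP kinase kinase gene, from 36 and 23 to 9 and 5 (-3.31 ± 0.37). The loop to the start of IQCH itself also passed downwards (26 and 27 to 7 and 9 PETs, -2.97 ± 0.37). The loop to PIAS1, a SUMO ligase gene, fell from 4 and 7 to 1 and 1 PETs (-3.51 ± 0.81). A1CF, whose product takes part in RNA editing, had a pair of lower anchors on 10q11.23, in its body (199 and 151 to 99 and 131 PETs, -1.83 ± 0.13) and over its start (202 and 138 to 107 and 111, -1.87 ± 0.13), and the loop between them fell from 51 and 42 to 15 and 17.

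On 1p36.11, the anchor chr1:23913183-23932796 lay 27 kb from ID3, an inhibitor of basic helix-loop-helix factors, and 85 kb from the ribosomal protein gene RPL11. It went from 78 and 76 to 19 and 26 PETs (-2.99 ± 0.22), and its loop to the start of E2F2, a cell cycle transcription factor gene, from 12 and 12 to 4 and 3 (-2.98 ± 0.57). With the ID3 start it shared 272 and 235 PETs at day 0, which its own count leaves out because the anchor over that start was called only at day 0. Near JUND on 19p13.11, an anchor in LSM4, a splicing factor gene, 20 kb from JUND, went from 189 and 222 to 154 and 173 PETs (-1.56 ± 0.12), and its loop to the JUND start from 72 and 89 to 59 and 74 (-1.54 ± 0.18). The other lower anchors lay over the starts of DBN1 (the actin-binding protein drebrin, -1.39), RGS14 (a regulator of G-protein signalling, -1.26), NXPH3 (a neurexin ligand, -1.49) and FOSB, described above. With the start of LMAN2, the RGS14 anchor shared 59 and 59 PETs at day 3 and the DBN1 anchor 10 and 6. Their counts leave these PETs out because the anchor over the LMAN2 start was called only at day 3.

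Folds of the 12 named lower anchors ran from 1.78 to 7.97, with a largest adjusted p of 1.31e-16. Of these 12, 11 were narrower at day 3, by up to 6.18 times, and the exception was the 8q24.21 anchor with a ratio of 1.04. The 12 named higher anchors kept their sign with library totals, which lower every log2 change. In each direction 11 of 12 overlapped an ARID1A anchor, beside 92.5% of all anchors called higher and 84.6% of all called lower.

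Anchors of similar called width, with the narrower width at least 0.8 of the wider, were tested separately on loops whose anchors both met this limit. In the fit over all loops between anchors called at both times, 4.38% of the 2764 anchors of this width range were higher and 25.3% lower. The separate fit differs from it in the loops counted and in scaling, and the part of each was not tested. Of 2047 anchors in the separate fit, 156 (7.62%) passed edgeR's test at an adjusted p of 0.05, 77 (3.76%) higher and 79 (3.86%) lower. These calls depended on single libraries: without day 0 replicate 1 none remained (274 had an unadjusted p under 0.05 in edgeR), without day 0 replicate 2 there were 9, and without day 3 replicate 1 or 2 there were 75 and 69; DESeq2 called 25. An ARID1A anchor overlapped 89.6% of the higher, 82.3% of the lower and 87.6% of the uncalled ones.

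The named higher anchors lay in or near THADA, BMP4, INPP4B, STX18, TLN2, FHIT, AKIRIN1 and MMADHC, and CPM here are relative to this set. An anchor inside THADA on 2p21 (chr2:43673493-43716500) went from 198 and 175 to 513 and 553 PETs, or 3207 ± 115 to 5208 ± 1.31 CPM (SD, n = 2), a log2 change of 0.70 ± 0.09. Its loop over 242.8 kb to the start of ZFP36L2, an mRNA decay factor gene, went from 68 and 56 to 199 and 206 PETs (0.44 ± 0.15, adjusted p = 0.033 among all loops), turning to -0.18 with library totals. The anchor over BMP4, which encodes a bone morphogenetic protein, went from 375 and 349 to 850 and 937 PETs (0.49 ± 0.07), and an anchor inside INPP4B, a phosphoinositide phosphatase gene, from 180 and 148 to 444 and 452 (0.64 ± 0.10). An anchor between genes lay 93 kb from STX18 and 211 kb from the homeobox gene MSX1 (0.97 ± 0.15). Another lay 18 kb from TLN2 and 128 kb from TPM1 (0.34 ± 0.06), and another 98 kb from MMADHC on the side of RND3 (0.58 ± 0.10). Loops of these anchors to the starts of STX18, MSX1, TPM1 and MMADHC were not called among all loops. They changed by 0.53 ± 0.22, 0.53 ± 0.28, -0.03 ± 0.10 and 0.02 ± 0.21, and each was negative with library totals. A further higher anchor lay inside FHIT (0.50 ± 0.09).

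Library totals moved the median log2 change of this set from -0.014 to -1.08, and with them the 7 higher anchors above turned. They stood at -0.37 for THADA, -0.58 for BMP4, -0.43 for INPP4B, -0.10 near STX18, -0.73 near TLN2, -0.49 near MMADHC and -0.57 in FHIT. The exception lay 4 kb from AKIRIN1, which encodes a nuclear protein, and held 1 and 1 PETs (day 0) against 17 and 34 (day 3), a ratio of 14.5 after scaling (95% counting interval 3.82 to 123.2). Within this set most of its PETs joined the AKIRIN1 start, at 0 and 0 against 16 and 32, over a span of 5.23 kb, close to the shortest span of any listed loop (5.004 kb). The set leaves out its loops to anchors whose width changed, such as the loop to the start of NDUFS5, a gene of mitochondrial complex I, with 7 and 3 PETs (day 0) against 5 and 7 (day 3) (-0.98 ± 0.64, adjusted p = 0.34). Over all loops between anchors called at both times the anchor held 13 and 8 against 37 and 72 PETs, a log2 change of 1.14 ± 0.34 (adjusted p = 0.0049). The 7 others stood at 0.08 to 0.52 over all such loops, each lower than within the set, and the anchor in FHIT did not pass there (0.08 ± 0.09, adjusted p = 0.50).

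The 8 named lower anchors of similar width lay on 6 chromosomes. On 17q24.3, between the kinase gene MAP2K6 and the potassium channel gene KCNJ16, the anchor chr17:67703608-67734466 went from 257 and 228 to 229 and 246 PETs, or 4170 ± 161 to 2321 ± 6.28 CPM (-0.84 ± 0.10), and the anchor chr17:67563633-67589819 from 220 and 183 to 207 and 232 (-0.69 ± 0.11). A pair among olfactory receptor genes on 11p15.4 changed by -0.49 ± 0.08 and -0.51 ± 0.09, and an anchor on 13q31.3, 916 kb from the microRNA cluster gene MIR17HG, by -0.76 ± 0.12. The anchor over the start of PRDM16, a transcription factor gene, went from 229 and 200 to 244 and 251 PETs (-0.61 ± 0.10), those on 6q14.1 near IBTK from 53 and 35 to 25 and 30 (-1.48 ± 0.27), and on 5q14.3 from 168 and 117 to 138 and 165 (-0.72 ± 0.13). The 5q14.3 anchor's loop over 951.6 kb to the start of NR2F1, an orphan nuclear receptor gene, went from 27 and 16 to 16 and 24 PETs (-1.36 ± 0.32). All 16 named anchors of this set lost the call without day 0 replicate 1, and 8 of them without day 0 replicate 2. Their log2 changes kept their sign in all 16 cases and shifted by at most 0.20 without the first and 0.16 without the second.

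**Figure D5:**
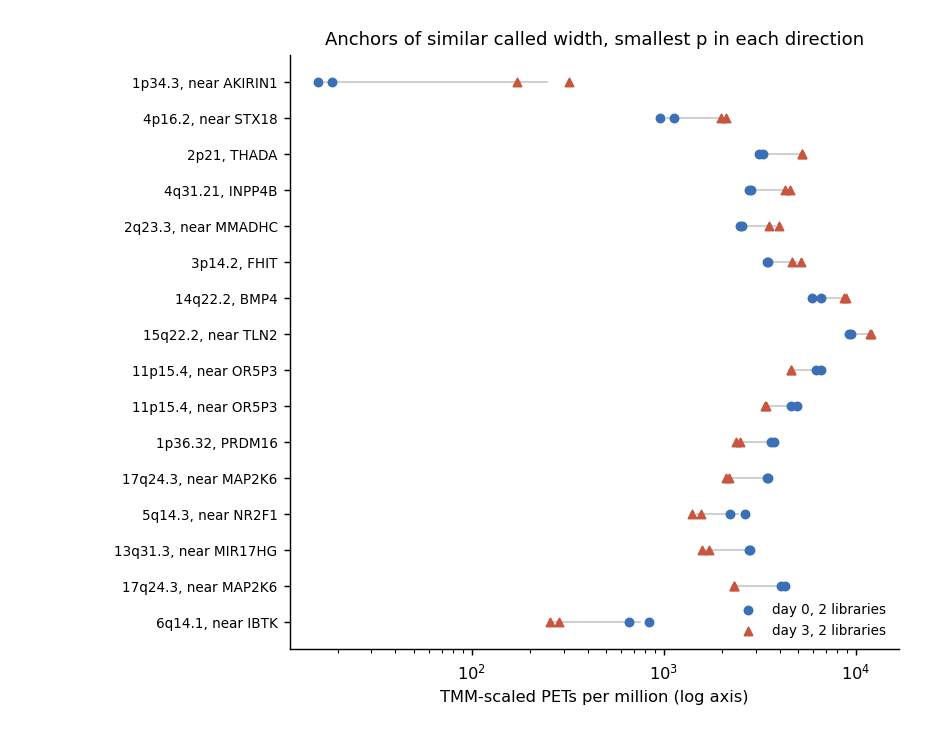
PETs per 1000000 of the similar-width set, on a log axis, for its 8 higher and 8 lower anchors with the smallest p, 1 point for each of the 2 day 0 (circles) and 2 day 3 (triangles) libraries, with a grey line between group means. Folds are 1.27 to 13.4 among the higher and 1.40 to 2.80 among the lower anchors, and 7 of the 8 higher ones turn with library totals.

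At the level of single loops, 2257 of 17253 tested (13.1%) passed edgeR's test, 1221 (7.08%) higher and 1036 lower. Called loops had a median span of 101 kb for higher and 61.7 kb for lower loops against 196.1 kb for uncalled ones, a description of these loops without a test. Nearly all of the 16 loops with the smallest p belonged to the anchors above: higher ones on 12q14.3, 4p14, 8q24.21, 3q22.1, 7p12.3 and 2p16.1, and lower ones on 8q24.21, 5q13.3 and 15q23. The lower loop outside them joined the start of COL11A1, a fibrillar collagen gene, to chr1:103609527-103651492 and went from 215 and 137 to 173 and 179 PETs (-1.26 ± 0.12). Among 3118 loops between anchors of similar width, 59 (1.89%) were called, 31 (0.994%) higher and 28 (0.898%) lower. The count of called loops fell to 915 without day 0 replicate 1, 1100 without day 0 replicate 2, 1266 without day 3 replicate 1 and 1201 without day 3 replicate 2, and to 24 of 9704 with every library thinned to the smallest.

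The median span of contacts was larger in both day 3 libraries than in either day 0 library. The median span, weighted by PETs, was 76.4 and 78.9 kb in the day 0 libraries and 101.1 and 99.9 kb in the day 3 libraries, which differ by 22.8 kb on average (exact two-sided permutation p = 0.3333, the smallest that 2 against 2 libraries can give). For loops between anchors called at both times the medians were 93.6 and 95.7 kb against 99.9 and 99.1 kb, a difference of 4.845 kb with the same exact p. PETs over 5 to 20 kb made up 14.5% and 14.4% of the total at day 0 and 12.02% and 11.99% at day 3, and those over 500 kb to 2 Mb made up 11.5% and 11.8% against 15.3% and 14.6%. In each of these measures the groups' libraries did not overlap.

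Partner counts per anchor were also higher in both day 3 libraries, by a smaller amount once all libraries were thinned to the same total. Anchors with at least 1 partner had 10.1 and 9.65 partners on average at day 0 and 18.5 in both libraries at day 3. With all libraries thinned to 253502 PETs, the means were 9.57 ± 0.119 and 9.92 ± 0.127 (SD, n = 2), a difference of 0.3505. For anchors called at both times the thinned means were 9.62 ± 0.118 and 13.3 ± 0.171, a difference of 3.685 with the libraries' totals of all listed PETs matched (exact permutation p = 0.3333 for each, the smallest possible). The thinning did not match the share that loops between anchors called at both times held of the PETs between different consensus anchors. That share was 80.1% and 80.4% at day 0 and 50.8% and 51.2% at day 3. It also did not match the PETs inside 1 merged anchor, which partner counts leave out. Before thinning these were 8.11% and 7.90% of PETs at day 0 and 1.33% and 1.31% at day 3.

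Regions with an anchor at a single time were described without a fold. The 9993 regions called only at day 3 had a median width of 5.025 kb, and 1306 of them held 100 or more PETs in both libraries. They took part in loops with 49.2% and 48.8% of the day 3 PETs between different consensus anchors. The strongest flank the LINC01122 anchor already described, at chr2:58736084-58776716 (1541 and 1617 PETs) and chr2:58854536-58883331 (1007 and 1172), within 1.21 kb of a day 0 anchor. STAT3, a transcription factor gene of cytokine signalling, held a pair at chr17:40488634-40521731 (1074 and 1064 PETs) and chr17:40473380-40484333 (604 and 660). Others covered the starts of LMNB2 (lamin B2; 780 and 857 PETs), ISG20L2 and METTL25B (748 and 775), GPX4 and POLR2E (a lipid peroxide reductase and an RNA polymerase subunit; 587 and 666) and HES7 and ALOXE3 (510 and 588). A region inside CPNE5 on 6p21.2, 75 kb from CDKN1A, held 621 and 613 PETs, and one between the homeobox gene MEOX1 and SOST 636 and 672.

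The 782 regions called only at day 0 took part in loops with 19.9% and 19.6% of the day 0 PETs between different consensus anchors. Of these regions, 103 held 100 or more PETs in both libraries. The strongest lay in the histone gene cluster of 6p22.2, where 3 regions cover the starts of 16 listed replication-dependent histone genes, such as H2BC6, H4C4 and H3C4. They held 1320 and 1156, 921 and 759, and 858 and 694 PETs, and they were joined to each other by 232 and 203 and by 178 and 157 PETs. A day 3 anchor lay 3.45 kb from the first of them, so the cluster was not without day 3 anchors. Next came chr17:57899752-57932550, over the end of VMP1, an autophagy gene, and MIR21, with 1081 and 843 PETs and its strongest loop (554 and 432 PETs) to another anchor in VMP1; the nearest day 3 anchor was 29.4 kb away. The mature product of MIR21, shown to identify the microRNA encoded at this region, is given from RefSeq (GRCh38.p14, chr17:59841273-59841294, plus strand) with its seed, bases 2 to 8, in capitals.
hsa-miR-21-5p: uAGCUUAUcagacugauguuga

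Further day 0 regions lay in DNM3, a dynamin gene (959 and 758 PETs), 22 kb from the zinc finger gene ZNF217 (916 and 723), between BMP4 and CDKN3 on 14q22.2 (920 and 666), between LYZL1 and SVIL (828 and 691), in TOM1L2 (768 and 746) and in LTN1, a ribosome quality control ligase gene (837 and 597). The nearest day 3 anchors to these 6 lay 1.47 to 14.4 kb away. Of the 10 named day 0 regions, 8 overlapped an ARID1A anchor, beside 48.7% of all regions called only at day 0, and of the 10 named day 3 regions 9 did, beside 73.3%. The named regions were 15.9 to 41.3 kb wide at day 0 and 10.3 to 40.6 kb at day 3. The medians of all such regions were 5.26 and 5.03 kb, and the part of width in these overlaps was not tested.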

How the data were processed

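H3K27ac HiChIP was read from 4 libraries of G401, with the 2 ARID1A libraries used for overlaps only. Groups and replicate numbers come from the sample titles. Per the submitters' processing notes, HiC-Pro and Bowtie2 were used with build hg19 (no versions). Anchor and loop calling is not given in the sources used here. The deposited lists hold, per loop, 2 anchors, a raw count of PETs and a value from 0 to 1. The authors' deposited value is unlabelled (p-value or q-value), and it served only as a limit of 0.01 in an alternative. Listed loops span 5 to 2000 kb, and coordinates follow the files, which do not say if they count from 0 or 1.

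Anchors sharing 1 bp or more across the 4 lists were merged in Python 3.11.15 (pandas 2.3.3, numpy 2.4.6). Loops inside a merged anchor held 8.11% and 7.90% of PETs at day 0 and 1.33% and 1.31% at day 3. They were left out of tests, anchor counts, partners and arcs, but kept in spans over all loops and in thinned totals. An unlisted loop between called anchors entered as 0. PET counts of anchors (10 or more in at least 2 libraries) and loops (4 or more) were tested in edgeR 4.0.16 (R 4.3.3) with TMM, quasi-likelihood F tests and Benjamini-Hochberg adjustment over all features tested, at 0.05. The scripts were tested on simulated data. CPM are TMM-scaled to 1000000 over the tested set, each PET counting at both its anchors, while the plot of arcs uses each library's total of all listed PETs. Ratios with a counting interval use an exact 95% binomial interval and cover counting error only. Spans and partners were compared by exact permutation over libraries in scipy 1.17.1, and plots were drawn with matplotlib 3.10.9.

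No hg19 annotation was used, so gene names come from a hand-written table of 196 hg19 positions to the nearest kb, of which 183 have a length within 5 kb of RefSeq; exon and intron positions were not used, and cytobands come from circlize 0.4.16. A start within 1 kb of an anchor counts as covered. Named are the 12 anchors, 8 similar-width anchors and 8 loops per direction of smallest p whose called change has no overlap of libraries across the groups, the 10 regions per group with the most PETs, and the called members of 7 gene lists. Other listed genes, and loops from named anchors to starts, are given as values and were chosen after their values were seen. The members and lists were chosen with earlier results of these data known. Merging across all 6 files and a width ratio of 0.9 to 1.1 were added as alternatives after seeing the data. Some items are not reported here.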

Additional observations from a re-analysis of the deposited data

How the results depend on the processing

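The number of anchors called at both times with a changed PET count was 2374 with the settings used. It was 4114 with library totals (8.68% of them higher, against 53.0%), 1128 with DESeq2 1.42.0 (which gave 883 no adjusted p), 1515 with libraries thinned to the smallest, 1076 with merging at a reciprocal overlap of 50%, 156 for similar called width, 16 within a width ratio of 0.9 to 1.1, and 1702 to 1838 with a library left out. The 2257 called loops became 4333 with library totals (11.5% higher, against 54.1%), 666 with DESeq2 (10369 without an adjusted p), 24 with thinning, 59 for similar width, 643 with reciprocal overlap, 363 with the replicate number as a block and 915 to 1266 with a library left out; without day 3 replicate 1 or 2, 65.8% and 65.6% of them were higher, with no filter on low counts 84.6%, and with thinning 70.8%. The block left 2239 anchors. The replicate differences of the groups correlated at r = 0.019 over 6500 anchors and 0.010 over 17253 loops. Because replicates differed by little more than counting error, these values cannot tell whether replicate numbers pair the libraries. The 156 similar-width anchors became 1685 with library totals (0.178% higher, against 49.4%), 25 with DESeq2 (60% higher), 64 with thinning (70.3% higher), 88 for loops with a deposited value of 0.01 or less, 16 within 0.9 to 1.1 (31.2% higher) and 0 to 75 with a library left out. A group left with 1 library was assumed to vary like the other group. The next counts are of all listed gene starts called under each setting, whether or not they were among the 15. The 1 for similar width is TPM1, which was not called with the settings used. Of the 15, FOSL1, JUND, TEAD1, TEAD3, AMOTL2, MYC and ACTN1 were tested for similar width. None of these kept its call there (edgeR adjusted p of 0.15 to 0.97), where the loops counted and the scaling also differ. The 15 called gene starts became 30 with library totals, 8 with DESeq2, 1 for similar width, 0 within 0.9 to 1.1 and 9 to 15 with a library left out.

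The day 3 minus day 0 span of 22.8 kb became 20.05 kb at a deposited value of 0.01 or less. It became 4.845 kb for anchors called at both times, where loops inside 1 merged anchor were also left out. The difference of 8.57 partners became 2.04 at that limit, 0.3505 with thinning and 8.32 to 8.82 with a library left out, and that of 13.5 for anchors called at both times became 4.44 and 3.685. The 782 regions of day 0 alone became 506 at that limit and 471 when anchors within 5 kb were also merged. Of the named features, 2 values of the anchor chr8:127383574-127450707 turned from -0.84 to 0.14 (similar width) and 0.17 (0.9 to 1.1), and 7 similar-width anchors turned with library totals (-0.37, -0.58, -0.43, -0.10, -0.73, -0.57 and -0.49). The other 284 values of named anchors and 187 of 190 of named loops kept sign and call; 3 loops lost the call with thinning, and 26 of 190 values of similar-width anchors lost theirs. Named features were not followed under reciprocal overlap or 6-file merging, and the cause of these shifts was not tested. The smallest library holds 253502 PETs and the largest 982141.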
